A study of Mus musculus with 32 samples.

Results

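The transcripts of hindlimb muscle of 8-week-old mice were compared between the late part of the light phase, when mice mostly rest, and the late part of the dark phase, when they are mostly active. The members were chosen by age and time of day, with earlier results of these data known. They are the 4 arrays of ZT 6 and 9, called late light here, where ZT (zeitgeber time) counts the hours since the lights came on, and the 4 arrays of ZT 18 and 21, called late dark, which together make 8 of the 32 arrays of the series. All animals were C57BL/6 mice, either 8 or 80 weeks old, entrained for 2 weeks to 12 h of light alternating with 12 h of dark, with free access to food and water, and none carried a genetic change or received a treatment per the labels. Each array (GeneChip Mouse Gene 2.0 ST, short probes along whole transcripts) held pooled RNA of 3 mice, and 24 mice in all were used for the 8 arrays. The 2 arrays of a time, called repeat 1 and repeat 2, come from different animals, so the replicate error is that of pools and the variation of individual mice was not measured. Each difference below is the mean of ZT 18 and 21 minus the mean of ZT 6 and 9 on the log2 scale, with the standard error (SE) from limma, in which all 16 arrays of 8-week mice share 1 estimate of the spread. That spread is the one between the 2 repeats of a time. Differences between the 2 times of a phase do not count as error in the SE or the p.

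Muscle fibres, like most cells, hold a circadian clock in which the activators BMAL1 (gene Arntl) and CLOCK switch on the genes of their own repressors, the period and cryptochrome proteins, through the E-box sequence. The nuclear receptors REV-ERBα and REV-ERBβ (Nr1d1 and Nr1d2) are made in the same wave and repress Arntl and Nfil3 through a retinoid-related orphan receptor element (RORE), while DBP, TEF and HLF activate and NFIL3 represses genes with a D-box. The muscle clock is known to act on glucose uptake, glycogen storage and the choice of fuel, and feeding, movement, body temperature and the daily pulse of glucocorticoid hormone reach the same genes from outside.

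Before the results, some promoters are shown, because several of the genes that differed are textbook targets of these elements. A promoter is here the stretch from 250 bases before to 50 bases after the start of a gene in RefSeq, build GRCm38.p6. Capitals mark the motif letters, and each sequence is written 5′ to 3′ on the strand of its gene. The E-box letters CACGTG stood at 3 places before Ciart and once in the shown stretches of Per1, Pfkfb3 and Ppp1r3c. The D-box TTATGTAA stood at 2 places before Per3. The RORE core TAGGTCA, or its reverse complement TGACCTA, stood before Nfil3 and Glul and 30 bases into the transcribed part of Arntl.
Ciart (chr3:95882229-95882378, minus strand): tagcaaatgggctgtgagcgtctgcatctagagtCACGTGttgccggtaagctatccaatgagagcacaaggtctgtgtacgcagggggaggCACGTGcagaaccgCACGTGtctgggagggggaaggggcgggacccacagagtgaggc
Per1 (chr11:69098739-69098838, plus strand): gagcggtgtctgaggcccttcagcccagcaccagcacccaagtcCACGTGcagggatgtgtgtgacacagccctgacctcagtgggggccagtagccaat
Pfkfb3 (chr2:11502091-11502190, minus strand): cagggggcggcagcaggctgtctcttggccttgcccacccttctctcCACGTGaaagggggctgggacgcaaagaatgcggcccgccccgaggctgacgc
Ppp1r3c (chr19:36736655-36736754, minus strand): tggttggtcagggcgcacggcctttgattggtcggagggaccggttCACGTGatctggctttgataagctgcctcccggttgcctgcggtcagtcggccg
Per3 (chr4:151044796-151044895, minus strand): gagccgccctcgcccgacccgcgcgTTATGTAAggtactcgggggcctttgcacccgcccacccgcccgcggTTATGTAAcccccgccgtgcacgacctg
Nfil3 (chr13:52981040-52981119, minus strand): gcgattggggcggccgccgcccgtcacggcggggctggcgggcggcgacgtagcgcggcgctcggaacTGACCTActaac
Glul (chr1:153899829-153899928, plus strand): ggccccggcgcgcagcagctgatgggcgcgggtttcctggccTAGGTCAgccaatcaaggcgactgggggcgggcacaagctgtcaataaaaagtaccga
Arntl (chr7:113207531-113207558, plus strand): aggcagaaagTAGGTCAgggacggaggt

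The arrays were of muscle by their content, and some also held liver transcripts. Muscle genes such as Acta1 (α-actin), Ckm (creatine kinase), Myh4 (fast myosin) and Mb (myoglobin) lay between 10.97 and 13.66 on all 8 arrays, and the mean of each of 9 such genes was at or above the 98.98th percentile of all genes. Albumin (Alb), which hepatocytes make, read 12.60 and 10.76 at ZT 6, 9.22 and 6.63 at ZT 9, 9.53 and 12.49 at ZT 18, and 8.96 and 8.45 at ZT 21 (repeat 1, then repeat 2). The mean of 25 hepatocyte genes was 9.26 on repeat 1 of ZT 6 and 8.56 on repeat 2 of ZT 18, where the median of all 32 arrays was 5.95, and these 2 arrays exceeded the limit of 1 above that median. Repeat 2 of ZT 6, at 6.87, was 0.915 above the median, and the other 5 arrays lay between 5.56 and 6.31. Each phase held 1 array above the limit. The list means of the phases overlapped, also among the remaining arrays (5.56 to 6.87 in late light, 5.84 to 6.31 in late dark). The median difference of the list was -0.30, and its members ran from -0.82 (Fgb, fibrinogen β) to 0.28 (Cyp2e1). In the limma test 0 of 25 passed and 0 of 25 had an unadjusted p under 0.05. The smallest adjusted p of a hepatocyte gene was 0.675. Among all genes 0.210% passed and 10.4% had an unadjusted p under 0.05. Results without the arrays above the limit are given beside the main counts.

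**Figure D1:**
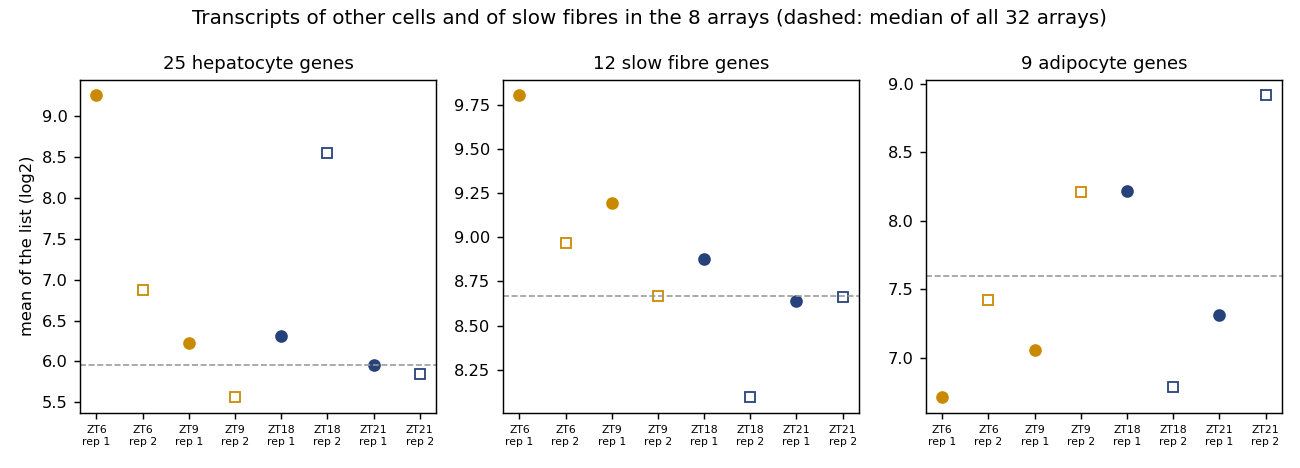
Mean log2 value of 25 hepatocyte, 12 slow fibre and 9 adipocyte genes on each of the 8 arrays (circles repeat 1, squares repeat 2, orange late light, blue late dark; dashed line, median of all 32 arrays). The hepatocyte mean reaches 9.26 on repeat 1 of ZT 6 and 8.56 on repeat 2 of ZT 18, and the slow fibre mean runs from 8.09 to 9.80.

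In late dark 25 genes rose and 24 fell at an adjusted p under 0.05 (limma with Benjamini-Hochberg adjustment over 23279 genes), which is 0.210% of the genes tested (0.107% higher, 0.103% lower). The median difference over all genes was -0.0056, and 2410 genes had an unadjusted p under 0.05. Differences of the 49 genes ran from 0.46 to 2.19 in size with a median of 0.80, and 6 rises and 6 falls were at least 2-fold. For 44 of the 49 the 4 late dark arrays lay apart from the 4 late light arrays (23 rises and 21 falls). Of all genes, 3.44% had every late dark array above, and 3.31% every late dark array below, the late light arrays. The 49 were called on these same arrays, which favours arrays that lie apart, so the 44 cannot be read against these shares. Genes of the circadian clock made 8 of the 49, and 29 belonged to none of the 19 pathway lists used here. All gene lists below, of pathways and of cell types, were chosen with earlier results of these data known, so their shares are descriptions. The lowest means of the 25 rising genes fell at ZT 9 for 15 genes and at ZT 6 for 6, and the highest at ZT 15 for 9, ZT 18 for 8, ZT 21 for 6 and ZT 0 for 2. Of the 24 falling genes 13 were highest at ZT 9 and 6 at ZT 6, while 11 were lowest at ZT 18 and 7 at ZT 21. Both sets were picked by the difference between the compared times, which favours extremes there, so these counts are a description.

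How many genes pass depended on single arrays. Leaving out 1 of the 8 arrays left 38 calls (without repeat 1 of ZT 6), 28 (repeat 2 of ZT 9), 25 (repeat 2 of ZT 6, or repeat 1 of ZT 21), 22 (repeat 2 of ZT 21), 16 (repeat 2 of ZT 18), 14 (repeat 1 of ZT 9) or 11 (repeat 1 of ZT 18). In all 8 of these fits the 49 genes kept their direction, with sizes of 0.78 to 1.22 times the main difference, and 11 passed in each: Nr1d1, Ciart, Per3, Arntl, Nfil3, Ppp1r3c, Banp, Myod1, Zbtb16, Cecr2 and Vmn2r34. Another 10 passed in none of them, namely Glul, Ip6k3, Slc39a10, Ypel2, Mpp3, Irs2, Bhlhe40, Pdcd4, 9430037G07Rik and Iigp1. These fits, like the other settings below on 8-week arrays, reuse arrays by which the 49 were picked. That favours a kept direction and size, so both are descriptions. Without all 4 arrays of 8-week mice above the hepatocyte limit, 2 of which are among the 8 compared, 12 arrays remained and 5 genes passed. They were Nr1d1 (-2.39, adjusted p = 0.00153), Ppp1r3c (1.45, adjusted p = 0.0245) and Nfil3 (1.11, adjusted p = 0.0389), and, named after their values were seen, Olfr988 (-1.65, adjusted p = 0.0245) and Gm14623 (-1.09, adjusted p = 0.0389), which had not passed with all arrays. The 49 genes all kept their direction there, with ratios to the main difference of 0.784 to 1.28 and a median of 0.992. Repeat 2 of ZT 6 lies just under the limit. Without it as well, late light rests on ZT 9 alone, 9 genes passed (8 of the 49) and 4 of the 49 moved by over 1.5 times. Arntl then gave 1.435, Per1 -1.36, Iigp1 -2.22 and Cyp4a14 -0.27, against 0.85, -0.76, -1.31 and -0.62 with all arrays. With the hepatocyte mean as a covariate in place of leaving arrays out, 46 genes passed, among them 38 of the 49.

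**Figure D2:**
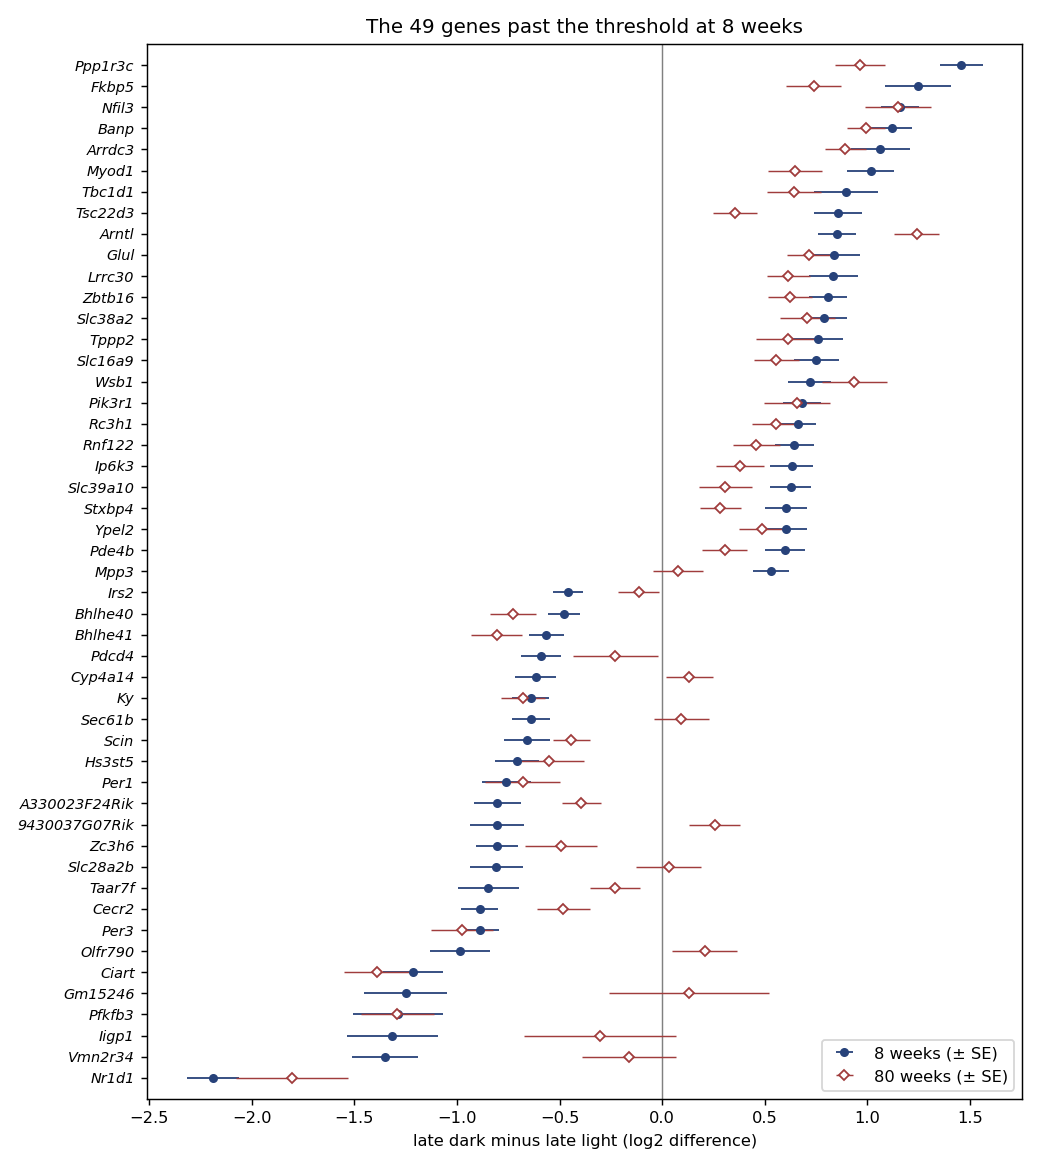
Log2 difference of late dark minus late light with its SE for the 49 genes past the threshold at 8 weeks (filled circles) and the same contrast in 80-week mice (open diamonds). Rises reach 1.46 (Ppp1r3c) and falls -2.19 (Nr1d1), and most of the 80-week values lie nearer 0 on the same side.

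The clock was the group with the largest single change. Of 22 measured core clock genes 2 rose and 6 fell, 13 had an unadjusted p under 0.05, and the list median was -0.11. Of all genes 0.107% rose, 0.103% fell and 10.4% had an unadjusted p under 0.05. The clock list was chosen with earlier results of these data known, so its shares are a description. Nr1d1 read 11.46 and 11.88 at ZT 6, 11.37 and 11.42 at ZT 9, 8.85 and 9.21 at ZT 18, and 9.61 and 9.72 at ZT 21. Every late dark array was thus more than 1 log2 unit below every late light array. The gene fell by 2.19 ± 0.13 (SE, 4 arrays per phase), a 4.56-fold difference, with an adjusted p of 2.58e-05. The related Nr1d2 differed less: its difference was -0.45 ± 0.09 with an adjusted p of 0.0947, although its arrays did not overlap.

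Of the repressors of the E-box wave, 5 genes fell (Ciart, Per1, Per3, Bhlhe40 and Bhlhe41), while Per2, Cry1 and Cry2 gave positive differences that did not pass. Ciart, whose product CHRONO blocks BMAL1 and CLOCK, read 7.67 and 7.84 at ZT 6, 8.80 and 8.73 at ZT 9, 7.17 and 6.92 at ZT 18, and 7.13 and 6.96 at ZT 21. It fell by 1.21 ± 0.15 (2.32-fold, adjusted p = 0.0064), with a difference of -0.71 at ZT 18 against ZT 6 and -1.72 at ZT 21 against ZT 9. Per3, a period gene, read 7.52 and 7.45 at ZT 6, 8.34 and 8.19 at ZT 9, 7.19 and 7.12 at ZT 18, and 6.79 and 6.84 at ZT 21, and fell by 0.89 ± 0.09 (adjusted p = 0.0032). Bhlhe41 (DEC2) and Bhlhe40 (DEC1), which compete for E-boxes, fell by 0.56 ± 0.09 (adjusted p = 0.0252) and 0.48 ± 0.08 (adjusted p = 0.0326). Bhlhe40 lay at 10.42 to 10.59 in late light and at 9.96 to 10.08 in late dark, so that a small difference stood clear of a narrow spread.

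Per1, which answers both the clock and glucocorticoid, did not separate the phases array by array. It read 7.96 and 8.28 at ZT 6 and 9.41 and 9.50 at ZT 9, against 8.43 and 8.17 at ZT 18 and 7.98 and 7.53 at ZT 21. Only the ZT 9 arrays stood out, and the average fell by 0.76 ± 0.12 (adjusted p = 0.0286). With the 8 arrays fitted as 2 groups in limma, the adjusted p of Per1 was 0.471. The period gene Per2 had its lower values at both ends, 6.50 and 6.26 at ZT 6 and 6.90 and 6.73 at ZT 21, and its higher ones at ZT 9 (7.40 and 7.36) and ZT 18 (7.43 and 7.33). Its difference over the phases was 0.21 (adjusted p = 0.536).

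The activator Arntl read 8.83 and 9.04 at ZT 6, 7.71 and 7.67 at ZT 9, 8.87 and 9.02 at ZT 18, and 9.38 and 9.39 at ZT 21. It rose by 0.85 ± 0.09 (1.80-fold, adjusted p = 0.00371), yet the ZT 6 and ZT 18 arrays overlapped. In a limma fit of the 8 arrays as 2 groups, where the spread between times of a phase counts as error, its adjusted p was 0.373. Nfil3, a repressor at D-boxes that REV-ERB itself represses, rose by 1.16 ± 0.09 (2.23-fold, adjusted p = 0.000286), from 7.29, 7.33, 7.05 and 6.87 in late light to 8.08, 8.22, 8.48 and 8.40 in late dark. Its phases did not overlap. Nfil3 and Nr1d1 passed in all 22 settings tried on the whole contrast.

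Other members of the loop had differences that did not pass. Dbp, a D-box activator, gave -0.78 ± 0.19 (adjusted p = 0.184), with 10.36 and 10.96 at ZT 9 against 9.31 and 9.38 at ZT 21 but 9.98 and 10.11 at ZT 6 beside 9.63 and 9.99 at ZT 18. Its relatives Hlf and Tef gave -0.31 and -0.22. The cryptochrome Cry1 gave 0.46 (adjusted p = 0.0927), with late light at 7.16 to 7.27 and late dark at 7.54 to 7.86, and Cry2 gave 0.08 (adjusted p = 0.874). Npas2, a stand-in for CLOCK, gave 0.56 (adjusted p = 0.439) on arrays that ran from 4.04 to 6.53, and Clock gave 0.06, Rora -0.05 and Csnk1d, a kinase of period proteins, 0.03. Of 23 clock output genes 2 rose (Myod1 and Tsc22d3) and 1 fell (Ciart, which is in both lists), against 0.107% and 0.103% of all genes. In this list 9 of 23 had an unadjusted p under 0.05 (10.4% of all genes). Members that did not pass include Coq10b (-0.73, adjusted p = 0.117), Wee1, a cell cycle kinase (0.54, adjusted p = 0.132), Usp2, a deubiquitinase (-0.16), and Nampt, of NAD synthesis (0.13).

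**Figure D3:**
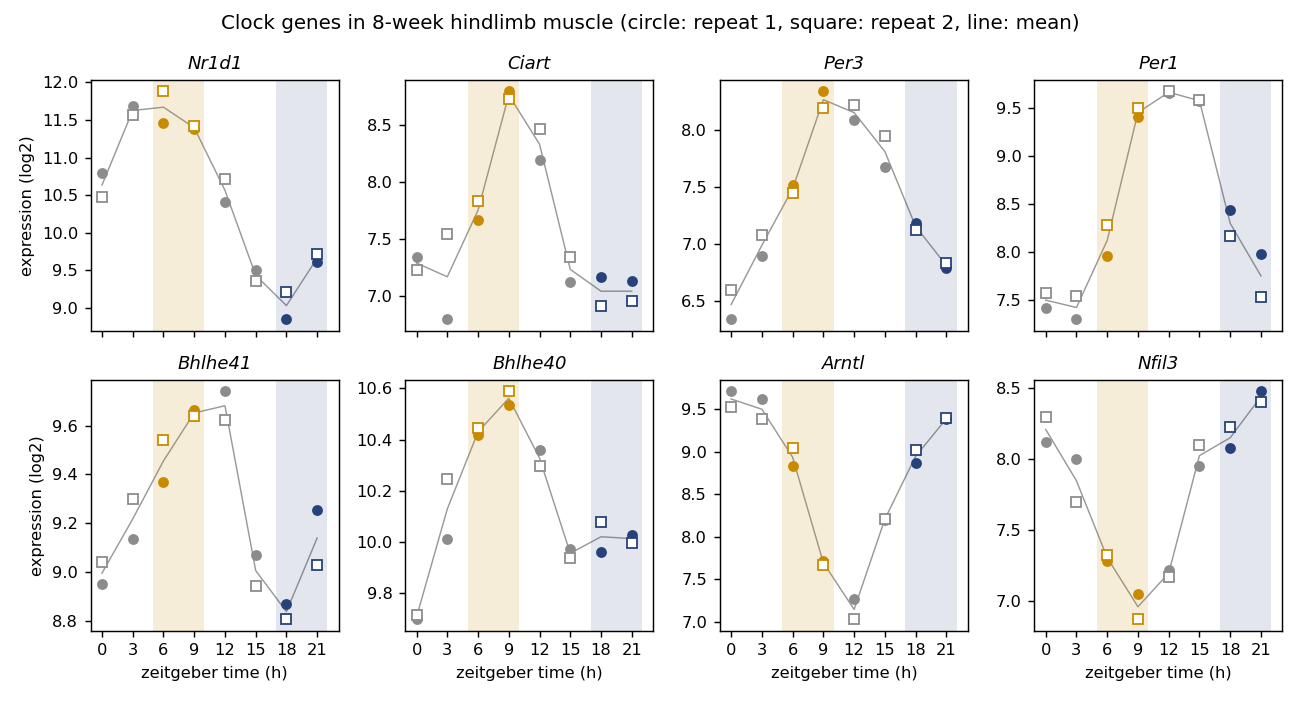
Log2 values of 8 clock genes on the 16 arrays of 8-week mice by zeitgeber time (circles repeat 1, squares repeat 2, grey line the mean; late light shaded orange, late dark blue). Nr1d1 stands at 11.37 or more in late light and 9.72 or less in late dark, whereas Per1 stands out at ZT 9 only among the compared times.

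Genes of glycogen and glucose handling moved in opposite directions. Among 23 measured genes of this list 2 rose and 1 fell (0.107% and 0.103% of all genes), and 8 had an unadjusted p under 0.05 (10.4% of all genes). Ppp1r3c, which targets protein phosphatase to glycogen and so favours its synthesis, had the largest rise of all: 10.56, 10.66, 9.67 and 10.03 at ZT 6 and 9 against 11.82, 11.73, 11.58 and 11.61 at ZT 18 and 21. It rose by 1.46 ± 0.10 (2.74-fold, adjusted p = 0.000131), and the late dark arrays differed among themselves far less than the late light ones. Tbc1d1, a brake on the movement of glucose transporters to the membrane that insulin and contraction release, rose by 0.90 ± 0.15 (adjusted p = 0.0459), with late dark values of 9.33, 9.72, 9.60 and 8.82 above late light values of 8.35 to 8.66. The lowest late dark value, repeat 2 of ZT 21, stood near late light. Pfkfb3, whose product makes an activator of glycolysis, read 10.22, 10.67, 10.35 and 10.53 in late light and 8.54, 9.53, 9.26 and 9.29 in late dark, and fell by 1.29 ± 0.22 (2.44-fold, adjusted p = 0.0402). It passed in only 1 of the 8 fits that leave out an array. Ppp1r3b, a relative of Ppp1r3c, gave 0.60 (adjusted p = 0.427), and Pdk4, which holds back pyruvate oxidation, gave -0.47 (adjusted p = 0.42) on overlapping arrays.

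In insulin signalling 1 of 24 genes rose and 1 fell, against 0.107% and 0.103% of all genes. Pik3r1, the regulatory subunit of PI 3-kinase, rose by 0.68 ± 0.09 (adjusted p = 0.0156), from 8.72, 8.94, 9.03 and 9.19 to 9.84, 9.72, 9.43 and 9.60. Irs2, a docking protein of the insulin receptor, fell by 0.46 ± 0.07 (adjusted p = 0.0344), and its values of 7.08 on both ZT 21 arrays were the lowest of the 8. Ip6k3, an inositol hexakisphosphate kinase that is abundant in muscle, rose by 0.63 ± 0.10 (adjusted p = 0.0344).

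The listed targets of the glucocorticoid receptor were more often higher than lower in late dark. Of 20 listed targets 5 rose (Fkbp5, Tsc22d3, Zbtb16, Pik3r1 and Glul) and 1 fell (Per1), against 0.107% and 0.103% of all genes. The list median was 0.29, 10 of 20 had every late dark array above late light (3.44% of all genes) and 12 had an unadjusted p under 0.05 (10.4%). As the list was chosen with earlier results of these data known, its shares cannot be read as an independent excess over all genes. Fkbp5, a co-chaperone of the receptor that is used as a readout of its activity, read 7.98, 7.78, 7.58 and 7.98 in late light and 9.37, 9.17, 8.99 and 8.78 in late dark, and rose by 1.25 ± 0.16 (2.37-fold, adjusted p = 0.0108). Tsc22d3, known as GILZ, rose by 0.86 ± 0.12 (adjusted p = 0.0135), from 8.81 to 9.08 in late light to 9.58 to 10.13 in late dark. Zbtb16, a zinc finger factor, rose by 0.81 ± 0.09 (adjusted p = 0.00494). The list did not move as 1 block: Klf15 gave -0.24, Klf9 -0.18, Sgk1 -0.13 and the receptor gene Nr3c1 0.24, and these 4 did not pass. Without the arrays above the hepatocyte limit the list median was 0.20, 11 of 20 genes had all late dark arrays above late light (7.92% of all genes) and 2 all below (8.98%), and 0 passed.

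Amino acid handling had 2 rises among 23 measured genes and 0 falls, against 0.107% and 0.103% of all genes. Glul, glutamine synthetase, read 10.20, 10.17, 10.60 and 10.41 in late light and 11.45, 11.22, 11.15 and 10.91 in late dark, and rose by 0.84 ± 0.13 (adjusted p = 0.0259). Slc38a2, which carries small neutral amino acids into the cell, rose by 0.79 ± 0.11 (adjusted p = 0.0177), with late dark values of 10.58, 10.70, 10.63 and 10.10. The cationic amino acid carrier Slc7a2 gave 0.44 (adjusted p = 0.104) without overlap of the arrays. Other carriers that rose were Slc16a9, a monocarboxylate carrier (0.75 ± 0.11, adjusted p = 0.0189), and Slc39a10, a zinc importer (0.63 ± 0.10, adjusted p = 0.0326).

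**Figure D4:**
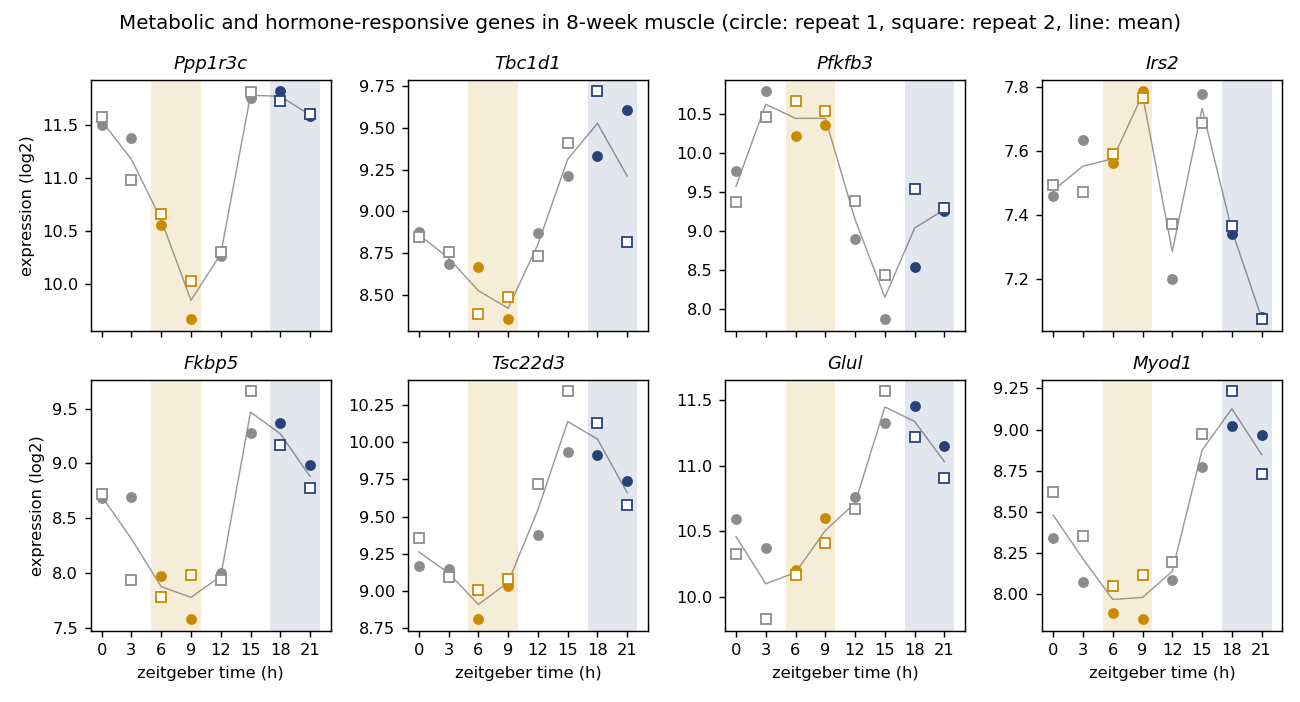
Log2 values of 8 metabolic, hormone-responsive and myogenic genes on the 16 arrays of 8-week mice by zeitgeber time (circles repeat 1, squares repeat 2, grey line the mean; late light shaded orange, late dark blue). Ppp1r3c stays at 11.58 or more in late dark and at 10.66 or less in late light, while Tbc1d1 on repeat 2 of ZT 21 (8.82) stands near late light.

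Among muscle and signalling genes, Myod1, the myogenic transcription factor, rose by 1.02 ± 0.11 (2.02-fold, adjusted p = 0.00411), with 7.88, 8.05, 7.84 and 8.11 in late light and 9.02, 9.23, 8.97 and 8.73 in late dark. It was the 1 called gene of the 9 satellite cell markers, whose median difference was 0.12, and Myog, a later myogenic factor, gave 0.33 (adjusted p = 0.545). Arrdc3, an α-arrestin of receptor traffic and a listed target of contractile activity, rose by 1.06 ± 0.14 (2.09-fold, adjusted p = 0.0134). In that list of 20 genes 1 rose and 2 fell (Pfkfb3 and Irs2), against 0.107% and 0.103% of all genes. The mitochondrial ATP carrier Slc25a25 gave 1.26 at ZT 18 against ZT 6 but 0.03 at ZT 21 against ZT 9. Ky, a muscle protein whose loss causes kyphoscoliosis in mice, fell by 0.64 ± 0.09 (adjusted p = 0.0177), from 10.24 to 10.56 in late light to 9.64 to 9.83 in late dark. Lrrc30, a leucine-rich repeat gene, rose by 0.83 ± 0.12 (adjusted p = 0.0177). The phosphodiesterase Pde4b rose by 0.60 ± 0.10 (adjusted p = 0.0344) although its arrays overlapped, since repeat 2 of ZT 21 read 6.39 and repeat 1 of ZT 6 read 6.41.

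Several called genes have roles in chromatin, RNA and protein turnover. Banp, a nuclear matrix protein that binds DNA, read 6.92, 7.00, 6.71 and 6.78 in late light, 8.39 and 8.35 at ZT 18, and 7.65 and 7.49 at ZT 21. It rose by 1.12 ± 0.10 (2.17-fold, adjusted p = 0.000837), and its highest arrays were those of ZT 18. Cecr2, a chromatin remodelling subunit, fell by 0.89 ± 0.09 (adjusted p = 0.00205), from 7.65 to 7.89 in late light to 6.66 to 7.09 in late dark. Rc3h1 (roquin, which promotes the decay of messenger RNA) rose by 0.66 ± 0.09 (adjusted p = 0.0134), and the ubiquitin ligase genes Wsb1 and Rnf122 rose by 0.72 ± 0.10 (adjusted p = 0.0189) and 0.64 ± 0.10 (adjusted p = 0.0223). The zinc finger gene Zc3h6 fell by 0.80 ± 0.10 (adjusted p = 0.011), Pdcd4, an inhibitor of translation, fell by 0.59 ± 0.10 (adjusted p = 0.0344), and Sec61b, of the channel through which proteins enter the endoplasmic reticulum (ER), fell by 0.64 ± 0.09 (adjusted p = 0.0189). Iigp1, an interferon-induced GTPase, fell by 1.31 ± 0.22 (adjusted p = 0.0402), which rests on ZT 9: the gene read 6.85 and 6.78 at ZT 6, 8.08 and 8.81 at ZT 9, and 6.10 to 6.57 in late dark. Its adjusted p was 0.319 in the limma fit of the 8 arrays as 2 groups.

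The remaining rises were Stxbp4 (0.60), Ypel2 (0.60), Tppp2 (0.76) and Mpp3 (0.53), and the remaining falls at a level of 5 or more were Hs3st5, a heparan sulfate sulfotransferase (-0.71), Scin, an actin-severing protein (-0.66), A330023F24Rik (-0.80) and 9430037G07Rik (-0.80). A further 6 called genes had a mean level under 5, and all 6 fell: Vmn2r34 (-1.35, adjusted p = 0.00598), Gm15246 (-1.25, adjusted p = 0.034), Olfr790 (-0.98, adjusted p = 0.0224), Taar7f (-0.85, adjusted p = 0.0499), Slc28a2b (-0.81, adjusted p = 0.0326) and Cyp4a14 (-0.62, adjusted p = 0.0326). Vmn2r34, Olfr790 and Taar7f belong to large families of chemoreceptor genes with similar copies, so that the gene behind such a signal is uncertain. At the edge of the call, Ypel2 (adjusted p = 0.0431), Tbc1d1 (0.0459) and Taar7f (0.0499) were the last inside. Cntfr (0.77, adjusted p = 0.051), Stim2 (0.41, adjusted p = 0.051) and Fam214a (-0.44, adjusted p = 0.0531) were the first outside.

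Chaperone genes had differences of 1 sign for most members and no call. In the list of heat and cold response genes 0 of 18 passed the limma test, 10 had an unadjusted p under 0.05 (10.4% of all genes), 6 had every late dark array above late light (3.44% of all genes), 0 every one below (3.31%), and the median was 0.25. Hspa1a (HSP70) gave 0.94 (adjusted p = 0.0775) with overlap, since repeat 1 of ZT 6 read 8.09 and the late dark arrays 7.77 to 8.46. Dnajb1 (HSP40) gave 0.67 (adjusted p = 0.14) without overlap, at 6.25 to 6.83 against 6.97 to 7.47, and Cirbp, which cold induces, gave -0.30 (adjusted p = 0.38). Of 15 genes of protein folding in the ER 0 passed, 4 had an unadjusted p under 0.05 and 6 had every late dark array above late light (10.4% and 3.44% of all genes), with a median of 0.16 and Hspa5 (BiP) at 0.29 (adjusted p = 0.219). Without the arrays above the hepatocyte limit the medians were 0.27 and 0.16, and 8 of 18 and 8 of 15 genes had all late dark arrays above late light, against 7.92% of all genes. Both lists were chosen with earlier results of these data known, so these shares are a description.

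No gene of the mitochondrial and lipid lists passed. Of 26 genes of the respiratory chain and the citric acid cycle 0 passed, 1 had an unadjusted p under 0.05 and the median was 0.04. Sdhc, a subunit of succinate dehydrogenase, had the widest difference of this list (-0.76, adjusted p = 0.159), with 10.02 on repeat 1 of ZT 6 and 10.24 on repeat 2 of ZT 21. Of 30 genes of lipid use 0 passed and 2 had an unadjusted p under 0.05. These 2 were Pnpla3 and Ppargc1b. Pnpla3, a lipase-like protein, gave 1.23 (adjusted p = 0.0605) with 6.13 to 6.92 against 7.26 to 8.42. Ppargc1b, a coactivator of mitochondrial genes, gave -0.48 (adjusted p = 0.0775) with 7.56 to 7.88 against 7.11 to 7.40. In the lipid list 2 of 30 genes had every late dark array above late light and 1 every one below, against 3.44% and 3.31% of all genes. Of 15 cholesterol synthesis genes 0 passed and 0 had an unadjusted p under 0.05. Among all genes 0.210% passed and 10.4% had an unadjusted p under 0.05, so 0 calls in lists this short say little.

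The make-up of the samples differed between arrays. In pooled tissue RNA, fewer cells or fibres of a type and less RNA per cell cannot be told apart. The 12 slow fibre genes had a median difference of -0.58 and all 12 were negative. Of these genes 7 had an unadjusted p under 0.05 (10.4% of all genes) and 0 passed (0.210% of all genes). Their mean per array was 8.67 to 9.80 in late light and 8.09 to 8.88 in late dark. Myh7, the slow myosin, read 10.82 and 9.62 at ZT 6, 10.07 and 9.42 at ZT 9, 9.60 and 8.55 at ZT 18, and 9.18 and 9.14 at ZT 21, which differs by -0.87 (adjusted p = 0.387). The highest value came from repeat 1 of ZT 6 and the lowest from repeat 2 of ZT 18, the 2 arrays above the hepatocyte limit, and without such arrays the list median was -0.20. The 13 fast fibre genes had a median of 0.05, with means of 12.80 to 12.86 per array. With the slow minus fast fibre mean as a covariate 8 genes passed, among them 6 of the 49 (Nr1d1, Nfil3, Ppp1r3c, Pfkfb3, Banp and Cecr2), and all 49 kept their direction with a median ratio of 0.942.

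Of 14 lists of cell type markers, 11 had a median above 0 and 3 below, and 1 held a call (Myod1, among the satellite cell markers). Of all genes 0.210% were called and 10.4% had an unadjusted p under 0.05. The medians below 0 were those of the hepatocyte list, of 10 neutrophil genes (-0.23, with means of 4.88 to 5.77 per array against 4.85 to 5.17, 2 of them with an unadjusted p under 0.05) and of 7 B and plasma cell genes (-0.06). The other lists are given by the 3 with the largest medians. The 10 fibroblast and tenocyte genes had a median of 0.56 (means of 7.48 to 8.26 per array against 8.04 to 8.46), 4 of them with an unadjusted p under 0.05. The 11 macrophage genes had a median of 0.35 (6.32 to 6.49 against 6.42 to 6.90), 6 of them with an unadjusted p under 0.05, among them the complement gene C1qb (0.60, adjusted p = 0.225). The 9 adipocyte genes had a median of 0.33 with wide scatter, 6.71 to 8.21 in late light and 6.78 to 8.92 in late dark, and 0 had an unadjusted p under 0.05. Without the arrays above the hepatocyte limit the medians of these 3 lists were 0.438, 0.432 and 0.419. There 4 of 10, 8 of 11 and 0 of 9 genes had all late dark arrays above late light (7.92% of all genes). In each list 0 had them all below (8.98% of all genes). With the adipocyte mean as a covariate 28 genes passed, 26 of them among the 49. In the pathway list of 26 collagen and matrix genes the median was 0.107, and 3 had every late dark array above late light (3.44% of all genes). Without the arrays above the limit that median was 0.224. There 12 of 26 had all late dark arrays above late light (7.92% of all genes) and 0 all below (8.98%). With fewer arrays more of all genes lie apart, so the counts with and without these arrays are not on 1 footing. The part of these cell types in the differences of single genes was not tested beyond these covariates.

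The contrast joins 2 pairs of times 12 h apart, which were also tested alone. At ZT 18 against ZT 6, 7 genes rose and 4 fell (0.0473% of all), and at ZT 21 against ZT 9, 10 rose and 13 fell (0.0988%). Of the 49 genes 48 had the same sign in both pairs, as did 58% of all genes; the 49 were picked by the mean of these same differences, which favours 1 sign, so the count is a description. Per1 was the exception, with 0.18 (adjusted p = 0.871) at ZT 18 against ZT 6 and -1.70 (adjusted p = 0.00174) at ZT 21 against ZT 9. Arntl gave 0.01 in the first pair and 1.69 in the second (adjusted p = 0.000667). It was the 1 gene in which the pairs differed by the test of that difference (1.68 ± 0.19, adjusted p = 0.0295, 0.00430% of all). Arntl did not pass this test in any of the 8 fits that leave out an array (1.58 to 1.79, adjusted p of 0.0665 to 0.292), nor without the arrays above the hepatocyte limit (1.86, adjusted p = 0.204). Per1 (-1.87, adjusted p = 0.0565) and Nrip1, a nuclear receptor corepressor (-1.28, adjusted p = 0.0725), were next. Nr1d1 fell in both pairs, by 2.64 and 1.74, and Ppp1r3c rose in both, by 1.16 and 1.75.

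**Figure D5:**
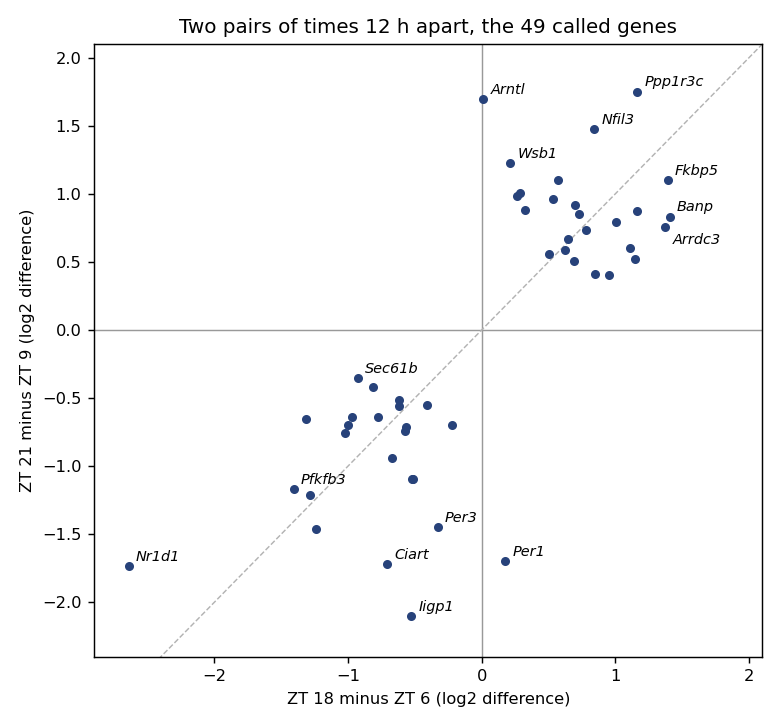
Log2 difference of ZT 21 minus ZT 9 against that of ZT 18 minus ZT 6 for the 49 genes past the threshold in the joint contrast (dashed line, equal differences). Per1 alone has opposite signs (0.18 and -1.70), and Arntl lies at 0.01 on the horizontal axis.

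Within late light, ZT 9 differed from ZT 6 in 3 genes (0.0129%). Arntl fell by 1.24 (adjusted p = 0.019), Per1 rose by 1.33 (adjusted p = 0.037), and the zinc finger gene Zfp352, at 3.71 and 4.19 against 5.28 and 5.36, rose by 1.37 (adjusted p = 0.037). Without repeat 1 of ZT 6, without repeat 2 of ZT 9, or without the arrays above the hepatocyte limit 0 genes passed here by limma (1571, 1644 and 1873 with an unadjusted p under 0.05), and without repeat 2 of ZT 6 there were 6. Within late dark, 0 genes differed between ZT 21 and ZT 18 by limma, where 652 had an unadjusted p under 0.05 and the smallest adjusted p was 0.447.

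To see whether these differences belong to the late hours, the contrast was set against that of early dark (ZT 12 and 15) and early light (ZT 0 and 3), which uses the other 8 arrays of the same age. For 23 of the 49 genes the late contrast differed from the early one by a test of that difference (0.210% of all genes). The 49 were picked by the late contrast, which is 1 side of this difference, so that their share cannot be read against that of all genes. Without the arrays above the hepatocyte limit 7 genes passed it, 6 of them among the 49. In the early contrast itself 61 genes passed (0.262%), 11 of them among the 49. The sign turned for Arntl (0.85 late, -1.88 early), Per1 (-0.76 and 2.15), Per3 (-0.89 and 1.25), Ciart (-1.21 and 0.55) and Nfil3 (1.16 and -0.42). Nr1d1 kept its sign (-2.19 and -1.13), and the difference passed narrowly (adjusted p = 0.0477). Of the 49 genes 26 had the opposite sign in the early contrast and 23 the same sign, which is near an even split. The share of all genes with opposite signs was not counted. Genes that were similar in both include Pfkfb3 (-1.29 late, -1.45 early), Glul (0.84 and 0.80), Arrdc3 (1.06 and 0.92) and Tsc22d3 (0.86 and 0.65), in which the early contrast passed too.

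Mice of 80 weeks, which share no array with the 8-week contrast, gave 10 rises and 9 falls in the same comparison (0.0816% of all genes). Of the 49 genes 43 had the same sign at 80 weeks, where 54.3% of all genes did. The same sign with an unadjusted p under 0.05 was found for 37, where 1199 of all 23279 genes had such a p in either direction. Non-overlapping arrays in the same direction were found for 31 (of all genes 2.13% were apart upwards and 2.03% downwards), and 13 passed. The 13 were the clock genes Nr1d1, Ciart, Per3, Bhlhe40, Bhlhe41, Arntl and Nfil3 and also Ppp1r3c, Pfkfb3, Banp, Arrdc3, Glul and Ky. Nr1d1 fell by 1.80 ± 0.27 at 80 weeks (adjusted p = 0.0308), Pfkfb3 by 1.29 ± 0.18 (adjusted p = 0.0168), and Arntl rose by 1.24 ± 0.11 (adjusted p = 0.000793). Differences of 41 of the 49 were smaller at 80 weeks, with a median of 0.55 in the 8-week direction against 0.80. The genes were picked by their 8-week values, so that smaller values in other animals carry no comparison between the ages. Signs were opposite for Cyp4a14, Sec61b, 9430037G07Rik, Slc28a2b, Olfr790 and Gm15246, and 4 of these 6 are among the genes with a level under 5. The test of the difference between the ages, on all 32 arrays, passed for 0 genes by limma, where 1258 had an unadjusted p under 0.05 and the smallest adjusted p was 0.281.

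The promoter motifs were counted over the called genes with a RefSeq promoter, 20 of those that rose and 20 of those that fell, on both strands and as a description only. The E-box CACGTG was in 6 of the 20 falling genes (30.0%: Bhlhe41, Ciart, Irs2, Per1, Pfkfb3 and Vmn2r34) and 3 of the 20 rising ones (15.0%: Fkbp5, Ppp1r3c and Wsb1), against 9.21% of 17466 promoters. RORE cores (TAGGTCA or TGGGTCA) were in 3 of 20 rising genes (Arntl, Glul and Nfil3) and 0 of 20 falling ones, against 6.85%. D-boxes (TTATGTAA or TTACGTAA) were in 0 rising and 2 falling genes (Per3 and Sec61b), against 1.15%. The glucocorticoid response element was in 0 rising and 0 falling genes, against 0.532%. The heat shock element was in 1 falling gene (A330023F24Rik) and the cyclic AMP element TGACGTCA in 1 rising gene (Wsb1), against 0.641% and 2.59%. The printed stretches show where the letters of the first 3 motifs stand in Ciart, Per1, Pfkfb3, Ppp1r3c, Per3, Nfil3, Glul and Arntl. The other genes counted here are not printed.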

How the data were processed

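The labels' protocols state that muscle was frozen, that total RNA was extracted and that RNA of 3 animals of a time was pooled per array. The authors deposited log2 expression values per probe set, made with RMA in affy 1.44.1 and R 3.2.2 per the submitters' processing notes; the probe set definition is not given in the sources used here. RMA sets values on a common scale, so a shift shared by most genes would not show. Of 24479 probe sets 23281 had 1 gene symbol, 0 several and 1198 none in the platform annotation, and 23156 matched RefSeq (GRCm38.p6). The probe set with the highest mean was kept per symbol, which left 23279 genes with no filter on level. Precision here is limited by how many arrays there are. Array medians lay between 5.98 and 6.08. No 2 arrays of 8-week mice were duplicates: the smallest root mean square difference was 0.25, and repeats of the compared times differed by 0.275 to 0.375.

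Tests used limma 3.58.1 in R 4.3.3 (lmFit, eBayes) with 1 mean per time over the 16 arrays of an age (all 32 for the age difference) and Benjamini-Hochberg adjustment over all genes, threshold 0.05. Functions were tested on simulated data. "Apart" means that all arrays of a phase lie above or below all of the other. The named genes are all clock genes, the 15 largest rises and 15 largest falls with arrays apart, at most 4 genes from every list, and the 3 genes of smallest p in each further test; the other called genes were named after their values were seen. The members and gene lists were chosen with earlier results of these data known. Alternatives covered the fit, the filter, the normalization, array weights, covariates and left-out arrays. Over the 28 pairs of 8-week times, the correlation of repeat 1 minus repeat 2 ran from -0.234 to 0.311, and the labels do not say that a repeat number marks a shared litter or day, so repeats were not paired.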

Additional observations from a re-analysis of the deposited data

Results flagged for a closer look

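In groups of 4 arrays, the highest or lowest array stood apart from the others for 7 of 164 values examined, and chance flags about 1 in 20. They were Nr1d1 on repeat 2 of ZT 6 (11.9, above the other late light arrays), 9430037G07Rik on repeat 1 of ZT 6 (7.06), Hs3st5 on repeat 2 of ZT 9 (8.27), and the means of the Schwann cell list on repeat 2 of ZT 9 (6.81), of the heat and cold response list on repeat 1 of ZT 21 (8.44), of the respiratory chain list on repeat 2 of ZT 21 (10.9) and of the satellite cell list on repeat 1 of ZT 18 (7.72). Leaving out any of the 8 arrays gave -2.30 to -2.08 for Nr1d1.

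Arntl was the 1 gene whose difference at ZT 21 against ZT 9 exceeded that at ZT 18 against ZT 6 by the test of the difference (1.68), and it did not pass in any of the 8 fits that leave out an array or without the arrays above the hepatocyte limit.

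The late contrast minus the early contrast passed its test for 23 of the called genes, which were picked by the late contrast. Among clock genes it was 2.73 for Arntl and 1.57 for Nfil3, and -2.91 for Per1, -2.14 for Per3, -1.77 for Ciart, -1.06 for Nr1d1, -0.801 for Bhlhe41 and -0.703 for Bhlhe40. Outside the clock it was positive for Ppp1r3c (1.78), Wsb1 (1.66), Lrrc30 (1.23), Rnf122 (1.18), Slc16a9 (1.15), Ypel2 (1.05), Slc38a2 (1.02), Banp (0.825), Pde4b (0.815), Zbtb16 (0.77) and Rc3h1 (0.76). It was negative for Zc3h6 (-1.44), Vmn2r34 (-1.32), Pdcd4 (-1.02) and A330023F24Rik (-0.961). Fkbp5 (1.03, adjusted p = 0.13) and Myod1 (0.86, adjusted p = 0.0684) did not pass this test.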

How the results depend on the processing

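The 49 calls of late dark against late light became 106 with a trended robust prior, 96 with all 32 arrays in the fit, 70 with a filter on level, 28 with an adipocyte covariate and 8 with a fibre covariate. The fits on the 8 arrays alone gave 8 (as 2 groups) and 7 (as 4 times). Without the arrays above the hepatocyte limit 5 passed, and 9 when repeat 2 of ZT 6 was left out too, a choice made after seeing the data. The single pairs gave 11 and 23, and leaving out 1 array gave 11 to 38. With the replicate block 60 genes passed (44 of the 49), and of the other counts the block moved 2 by over 1.5 times: the difference between pairs gave 0 and ZT 9 against ZT 6 gave 1. Without the arrays above the limit the counts were 1 (ZT 18 against ZT 6), 9 (ZT 21 against ZT 9), 0 (difference between pairs), 0 (ZT 9 against ZT 6), 7 (late against early) and 7 (80 weeks). Array weights gave 4 for ZT 18 against ZT 6 and 1 for ZT 9 against ZT 6, and the filter gave 4 for the difference between pairs and 78 for late against early. Leaving out 1 array gave 1 to 2 (ZT 18 against ZT 6), 6 to 12 (ZT 21 against ZT 9), 0 to 1 (difference between pairs), 0 to 6 (ZT 9 against ZT 6), 20 to 38 (late against early), 7 to 32 (80 weeks) and 0 to 4 (age). The hepatocyte mean differed by -0.312 between phases, with -0.942 to 0.449 when 1 array was left out. Over genes and settings, 591 values kept direction and call, 578 kept direction and lost the call, and 1 reversed: Per1 at ZT 18 against ZT 6 (0.18). Fits on fewer arrays have fewer residual degrees of freedom; what else lowers the counts was not tested.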
